A study of Bombyx mori with 4 samples.

Results

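The genes described here encode proteins of mitochondrial respiration and other mitochondrial proteins, measured in the larval testis of the silkworm *Bombyx mori*. They were chosen by name and not by value: a probe entered when the description given to it in the re-annotation of the array contained NADH dehydrogenase, succinate dehydrogenase, ubiquinol, cytochrome c, ATP synthase or mitochondrial. In the 1999 rows of that re-annotation used here, of 12981 rows in all, 104 of the 43803 probes on each array met this rule. They stand for 49 of the 839 genes named there and for 53 ESTs (expressed sequence tags, the cDNA sequences from which the probes were designed). Symbols and roles are those of the human homolog. None of the rows used named a subunit of complex II, so the respiratory chain was described through 4 complexes (complexes I, III and IV, and ATP synthase).

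The mutant larvae carried the *op* mutation, a spontaneous mutation of strain o751 mapped to a chromosome, whose larvae have translucent skin and whose males are infertile. Wild-type larvae of the same strain were the comparison, and both were sampled on day 3 of the fifth instar. Each genotype had 2 arrays, op 1 and op 2, and wild type 1 and wild type 2, each hybridized with Cy3-labeled RNA on a single slide. No source used here says that the arrays of a genotype came from separate animals, so the p-values measure the spread between these samples, which may be technical. In whole testis, more cells of a type and more RNA per cell cannot be told apart.

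The respiratory chain sits in the inner mitochondrial membrane. Complexes I and II feed electrons from NADH and succinate to ubiquinone, complex III passes them to cytochrome c, and complex IV hands them to oxygen. Complexes I, III and IV pump protons, and ATP synthase uses the returning protons to make ATP. A few core subunits are encoded in mitochondrial DNA, and all other mitochondrial proteins are made in the cytosol and imported. In insect spermatids the mitochondria fuse into a large body that later runs along the sperm tail.

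Values are log2 of the background-subtracted spot signal, less the array's own 75th percentile, so that 0 is the level of the probe at that percentile. They are called the normalized log2 signal, and each difference is the op mean minus the wild-type mean. Between 67.8% and 72.3% of probes were well above background on an array. Of the 104 mitochondrial probes, 101 could be tested, and the other 3 were too dim. No spot was saturated and none of these probes carried an outlier flag.

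Of the 101 mitochondrial probes tested, 0 passed an adjusted p of 0.05 in limma with Benjamini-Hochberg adjustment over 30376 probes, where 0.316% of all probes passed. At an unadjusted p under 0.05, 16 were higher in op testis, which is 15.8% of them against 10.6% of all probes. A further 6 were lower in op testis, which is 5.94% against 8.04% of all probes. Both op arrays lay above both wild-type arrays at 36 probes, or 35.6% against 28.8% of all probes, and below them at 22, or 21.8% against 24.9%. The median difference was 0.06 over the mitochondrial probes and 0.03 over all probes tested. Positive differences were seen at 59 of the 101 probes, against 53.2% of all probes tested. The sign counts of the classes below stand beside that share. When arrays were aligned on their median signal 47 were positive, and the median difference of all probes was then -0.06. With that alignment 5 probes were higher at an unadjusted p under 0.05, which is 4.95% against 7.87% of all probes, and 8 were lower, or 7.92% against 11.7%. With no scaling 5 were higher, against 6.27% of all probes, and 2 lower, against 7.1%. The share of higher probes was thus above that of all probes with the percentile shift and with quantile normalization (11.9% against 8.46%), and below it with the other scalings. It was also below it without wild type replicate 1, at 2 probes or 1.98% against 5.47%, and without wild type replicate 2, at 2 probes against 4.69%, while without op replicate 1 it was 26 probes, or 25.7% against 16.5%. Without op replicate 2 it was 15 probes, or 14.9% against 18.2%. With 2 arrays in each genotype, the smallest two-sided p that exact permutation can reach is 0.333.

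The classes were not alike in their values. Complex I subunits had a median difference of 0.47 over 10 probes, ATP synthase 0.43 over 11 and the matrix enzymes 0.58 over 13. Complex III had 0.20 over 6 probes and the carriers 0.14 over 16. The mitochondrial ribosome, with -0.02 over 14 probes, and complex IV, with -0.03 over 6, lay close to 0. With arrays aligned on their median signal the medians of these classes were -0.11 and -0.12. With that alignment the median was 0.38 for complex I subunits and -0.06 for all probes. The medians were -0.07 for import and processing over 14 probes, -0.11 for the complex I assembly factors over 6 and -0.11 for mitochondrial gene expression over 5. Without op replicate 1 the median of ATP synthase was 0.18 and that of the matrix enzymes 0.83, and without op replicate 2 that of the matrix enzymes was 0.27. Without wild type replicate 1 the median of ATP synthase was 0.24 and that of the carriers 0.04. The difference between classes was not tested.

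**Figure D1:**
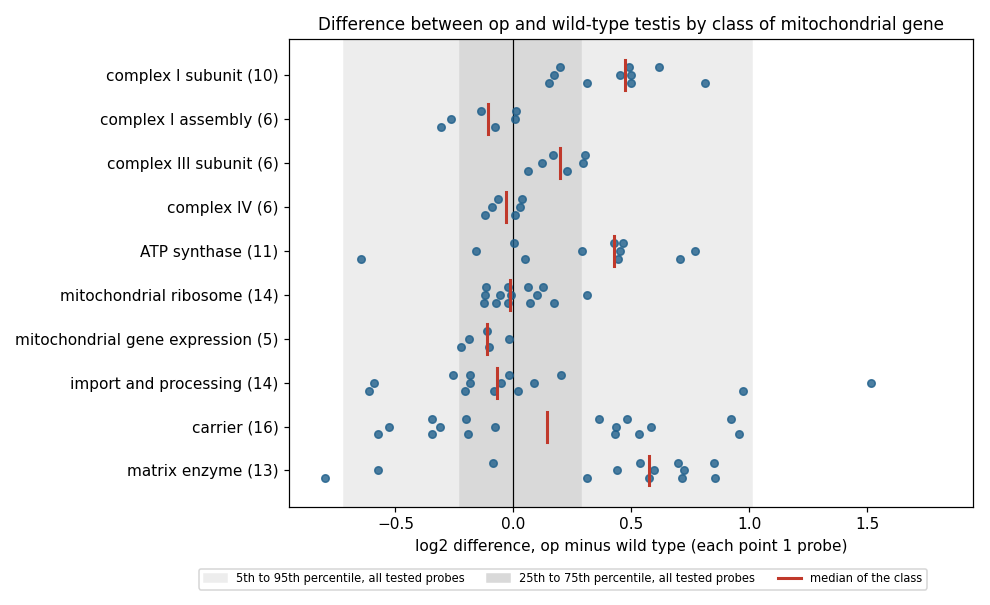
Log2 difference between op and wild-type testis (x axis) for each of the 101 tested mitochondrial probes, by class (rows, number of probes in parentheses), with the median of the class as a red bar and the spread of all 30376 tested probes in grey. All 10 complex I subunit probes lie to the right of 0, while the 14 probes of the mitochondrial ribosome lie between -0.13 and 0.31.

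Complex I, the entry point for electrons from NADH, was represented by 5 subunits with 2 probes each. All 10 probes had higher means in op testis, as did 53.2% of all probes tested. The differences ran from 0.15 to 0.81, and adjusted p-values from 0.122 to 0.765 in limma. At an unadjusted p under 0.05, 4 of the 10 passed, all higher in op testis, where 10.6% of all probes did. This count was 2 with arrays aligned on their median, against 7.87% of all probes, and 1 with no scaling, against 6.27%. It also fell when a wild-type array was left out. All 10 differences stayed positive under each of 12 settings that kept every array, scaling alternatives included, and 8 did so without op replicate 1.

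NDUFB7, an accessory subunit of the membrane arm, had the lowest adjusted p-values of the complex. Its probe Ka02518_420 read 1.75 and 1.71 in op testis, against 1.09 and 1.14 in wild-type testis. Its probe Ka02518_48 read -4.13 and -4.23 in op testis, against -4.93 and -5.06 in wild-type testis. The differences were 0.62 (SE 0.15, adjusted p = 0.156) and 0.81 (SE 0.16, adjusted p = 0.122), or 1.53-fold and 1.76-fold. The second probe is dim, and under normexp background correction its difference was 0.26 (adjusted p = 0.409), while the first stayed at 0.60. Neither gap was bridged by the spread within a genotype, which was at most 0.13 between arrays of either genotype. NDUFA12, another accessory subunit, read 2.16 and 2.23 in op testis, against 1.66 and 1.82 in wild-type testis, on probe Ka01662_240. Its second probe read 3.07 and 2.88 in op testis, against 2.41 and 2.54 in wild-type testis. The differences of NDUFA12 were 0.45 and 0.50 (adjusted p = 0.247 and 0.234), and the genotypes did not overlap on either probe.

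NDUFAB1, the acyl carrier protein of the matrix and also a subunit, differed by 0.31 and 0.17 (adjusted p = 0.376 and 0.64). On its probe Ka01334_344 the values were 2.30 and 2.52 in op testis, against 2.13 and 2.35 in wild-type testis, so the genotypes overlapped there.

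The assembly factors of complex I did not all share the sign of the subunits, with 2 of 6 probes higher in op testis and 4 lower. Over the 4 probes well above background on every array, 2 were higher and the median was -0.13. Under normexp background correction 3 of the 6 were higher, with a median of -0.003. NDUFAF1 read 2.28 and 2.29 in op testis, against 2.49 and 2.69 in wild-type testis, on probe Ka00233_676, and both of its probes had op arrays below wild-type arrays. Its differences were -0.31 and -0.27 (adjusted p = 0.384 and 0.434). NDUFAF3 differed by 0.01 on both probes, which turned negative when arrays were aligned on their median. TIMMDC1, an assembly factor of the membrane arm, differed by -0.08 and -0.14 and was dim. Only 1 of the 2 op arrays was well above background on each probe, so both were tested through the wild-type arrays alone.

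Complex III carries electrons from ubiquinol to cytochrome c. Its 6 probes had higher means in op testis, by 0.06 to 0.30, as did 53.2% of all probes tested. None of the 6 reached an unadjusted p under 0.05. UQCRFS1, the Rieske iron-sulfur protein, read 1.37 and 1.68 in op testis, against 1.17 and 1.28 in wild-type testis, on probe Ka00535_495. On its second probe it read 2.44 and 2.75 in op testis, against 2.24 and 2.33 in wild-type testis. Both differences came to 0.30 (adjusted p = 0.443 and 0.432), with op 2 the highest array each time. CYC1, cytochrome c1, differed by 0.17 and 0.23 (adjusted p = 0.602 and 0.479), and its op arrays lay above its wild-type arrays on both probes. MT-CYB, cytochrome b, differed by 0.06 and 0.12, the first turning negative under other scalings of the arrays, and its genotypes overlapped on both probes.

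Complex IV, which reduces oxygen, had differences from -0.12 to 0.03 over 6 probes. MT-CO1, the catalytic core subunit, read 4.99 and 4.63 in op testis, against 4.78 and 4.83 in wild-type testis, on probe Ka02608_1116. On probe Ka02608_1136 it read 6.50 and 6.22 in op testis, against 6.29 and 6.36 in wild-type testis. The wild-type arrays lay between the op arrays on both probes, and the differences were 0.01 and 0.03, with 95% intervals from -0.50 to 0.51 and from -0.43 to 0.49. COX6C, a small accessory subunit, differed by 0.03 and -0.12, and COX10, which makes the heme A of the complex, by -0.07 and -0.09. At the probes of COX6C and COX10 the adjusted p-values were 0.686 to 0.921. The sign of MT-CO1 and of the first COX6C probe changed with the scaling of the arrays.

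MT-CO1, MT-CYB and MT-ND1 are the 3 members whose human homologs are encoded in mitochondrial DNA, and the RefSeq annotation of the *Bombyx mori* assembly ASM3026992v2 lists COX1, CYTB and ND1 among 13 protein-coding genes of the mitochondrial chromosome. Their 6 probes differed by 0.01 to 0.20, and at 0 of the 6 did the genotypes separate. Of all probes, 28.8% had op arrays above wild-type arrays and 24.9% below. MT-ND1, the membrane core subunit of complex I, read 4.75 and 4.20 in op testis, against 4.40 and 4.15 in wild-type testis, on probe Ka01681_604, and 6.67 and 6.10 in op testis, against 6.17 and 6.30 in wild-type testis, on the second. Its differences were 0.20 and 0.15 (adjusted p = 0.699 and 0.765), and without op replicate 1 they became -0.08 and -0.13. All 6 probes were higher on op 1 than on op 2, by 0.14 to 0.57, against 14 of 25 probes of nuclear subunits. The 25 probes of nuclear subunits had a median difference of 0.31, against 0.09 for the 6 mitochondrially encoded ones. Whether these medians differ was not tested.

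ATP synthase was covered by 11 probes of 5 genes. Higher means in op testis were seen at 9 of them, against 53.2% of all probes tested. This count was 7 when arrays were aligned on their median and 6 without op replicate 1. The 3 genes ATP5G3, ATP5O and ATP5A1 carried the higher values, while ATP5B and ATP5C1 were mixed. At an unadjusted p under 0.05, 4 probes were higher and 1 was lower in op testis, against 10.6% and 8.04% of all probes. With median alignment these counts were 2 and 1, against 7.87% and 11.7%. Neither held when wild type replicate 2 was left out. In limma the adjusted p-values ran from 0.147 to 0.995.

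ATP5G3, a subunit of the c ring that turns in the membrane, matched 2 ESTs. EST Ka00617 read -1.53 and -1.74 in op testis, against -2.30 and -2.50 in wild-type testis, on probe Ka00617_240. The neighbouring probe Ka00617_250 read -0.70 and -0.95 in op testis, against -1.42 and -1.65 in wild-type testis. The differences were 0.77 (SE 0.18, adjusted p = 0.147) and 0.71 (SE 0.19, adjusted p = 0.177). EST Ka02701 read 7.21 and 6.89 in op testis, against 6.57 and 6.60 in wild-type testis, on probe Ka02701_924, a difference of 0.46 (adjusted p = 0.28; 0.30 without op replicate 1). Its other probe, Ka02701_69, read -1.06 and -1.24 in op testis, against -1.22 and -1.09 in wild-type testis, a difference of 0.00 whose sign changed with the scaling. The 4 probes of this gene therefore gave 3 comparisons without overlap and 1 in which the wild-type arrays lay between the op arrays. Op arrays lay above wild-type arrays at 28.8% of all probes.

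ATP5O, the stalk protein that gives oligomycin sensitivity, read 3.29 and 3.34 in op testis, against 2.81 and 2.94 in wild-type testis, on probe Ka01472_183. Both of its probes separated the genotypes, with differences of 0.44 and 0.43 (adjusted p = 0.248 and 0.262). ATP5A1, the alpha subunit, had 1 probe, which read 6.04 and 5.83 in op testis, against 5.60 and 5.69 in wild-type testis (difference 0.29, adjusted p = 0.416). ATP5B, the catalytic beta subunit, differed by -0.16 and 0.05, the second turning negative under median alignment and with no scaling, with op 1 above op 2 by 0.49 and 0.57.

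ATP5C1, the gamma subunit of the central stalk, was the only member whose 2 probes on an EST disagreed by over 1 on the log2 scale. Probe Ka02554_1286 read 3.98 and 4.53 in op testis, against 4.96 and 4.83 in wild-type testis, a difference of -0.64 (SE 0.24, adjusted p = 0.262). Probe Ka02554_311 read 4.30 and 3.09 in op testis, against 3.02 and 3.47 in wild-type testis, a difference of 0.45 (SE 0.45, adjusted p = 0.627). The op arrays ran in opposite order on the 2 probes: op 1 was the lowest array on the first and the highest on the second. Without op replicate 2 the first probe stood at -0.92 and the second at 1.05, while without op replicate 1 they were -0.37 and -0.15.

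**Figure D2:**
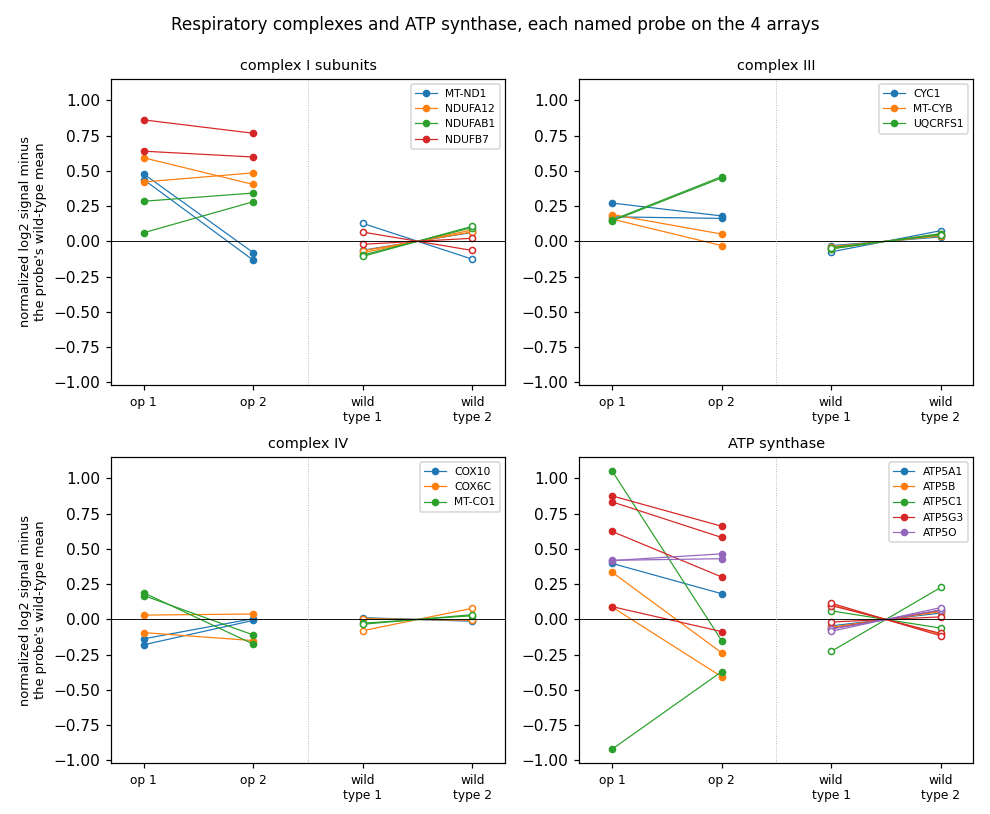
Normalized log2 signal of each named probe minus its wild-type mean (y axis) on the 4 arrays (x axis, op arrays filled and wild-type arrays open), with lines joining the arrays of a genotype and 1 color per gene. The NDUFB7 and NDUFA12 lines stay above 0 on both op arrays, MT-CO1 crosses 0, and the 2 ATP5C1 probes run in opposite directions between the op arrays.

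Markers of other cell types were read beside these values. Muscle, a tissue rich in mitochondria, had 5 marker probes, and 4 were tested. All 4 had both op arrays above both wild-type arrays, against 28.8% of all probes. TNNT3, a troponin of striated muscle, read 0.91 and 1.27 in op testis, against -1.51 and 0.07 in wild-type testis, on probe Ka00556_756, with differences of 1.81 and 1.76 on its 2 probes (adjusted p = 0.213 and 0.231). TPM2, a tropomyosin, read -0.63 and -0.06 in op testis, against -3.63 and -1.88 in wild-type testis, on probe Ka01810_247, with differences of 2.41 and 2.09 (adjusted p = 0.175 and 0.126). The muscle signals, summed on the linear scale as multiples of the 75th percentile, were 3.95 and 5.34 in op testis, against 0.725 and 2.18 in wild-type testis. TMOD1, a tropomodulin, was not well above background on any array.

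Among 7 probes for proteins of the basement membrane of the testis sheath, 5 had op arrays above wild-type arrays, against 28.8% of all probes. COL4A5 and COL4A6, type IV collagens, differed by 1.65, 0.96 and 1.36. NID1, which links laminin to collagen, differed by 3.08 on probe Ka02336_668 (adjusted p = 0.0841), and in wild-type testis its other probe did not clear background. That other probe is among the 5 and was tested through the op arrays alone. LAMA4, a laminin chain, differed by 0.06 and 0.10. The summed signals were 5.2 and 5.54 in op testis, against 4.82 and 4.21 in wild-type testis, and mostly reflect LAMA4, the brightest gene of the list. The mean normalized log2 signal of the 7 probes was -1.94 and -1.47 in op testis, against -3.05 and -3.30 in wild-type testis. Germ line markers NANOS3 and PIWIL4 differed by -0.35 to 0.01 over 4 probes. PIWIL4, a Piwi protein, read 0.80 and 0.90 in op testis, against 1.25 and 1.15 in wild-type testis, on probe Ka00536_518, and both of its probes had op arrays below wild-type arrays, while the NANOS3 arrays overlapped. The germ line probes had summed signals of 4.69 and 4.76 in op testis, against 5.85 and 5.65 in wild-type testis, which mostly reflect PIWIL4, the brighter gene.

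The 10 axoneme and sperm tail probes, which include tubulins TUBA3D and TUBB4B, differed by -0.59 to 0.84 with a median of 0.06. Their sums were 328 and 266 in op testis, against 273 and 303 in wild-type testis. These sums mostly reflect the tubulins, the brightest genes of the list. Of 17 digestive enzyme probes, 12 were tested, with a median difference of -0.27 and sums of 5.13 and 6.48 in op testis, against 6.48 and 6.67 in wild-type testis. All 4 germ line probes were well above background on every array. The part of muscle or sheath RNA in the values of the respiratory genes was not tested.

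**Figure D3:**
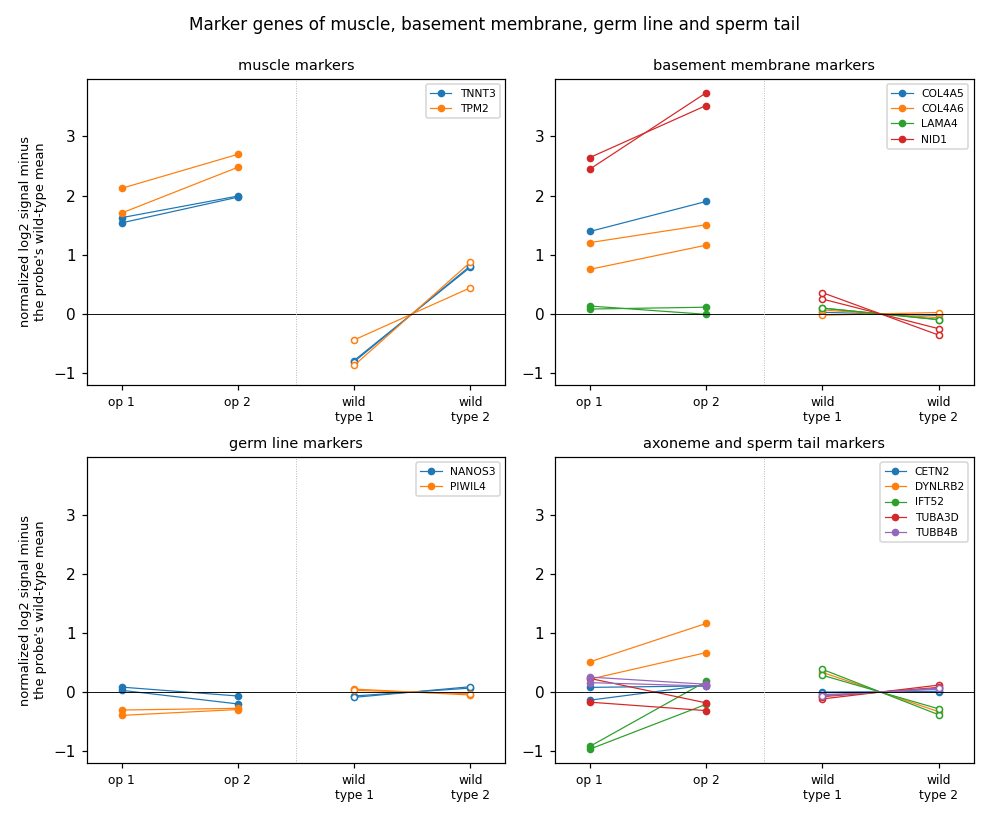
Normalized log2 signal of each tested marker probe minus its wild-type mean (y axis) on the 4 arrays (x axis, op arrays filled and wild-type arrays open), for muscle, basement membrane, germ line and sperm tail genes. The muscle probes stand above the wild-type mean on both op arrays and wild type 1 is the lowest array for all 4 of them, while the PIWIL4 probes lie below 0 on both op arrays and NANOS3 overlaps between genotypes.

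The machinery that expresses the mitochondrial genome differed little in mean between genotypes. The 14 probes of 7 mitochondrial ribosomal proteins ranged from -0.13 to 0.31, with 6 above 0, and none reached an unadjusted p under 0.05. The highest mean belonged to MRPL12, which contacts translation factors on the large subunit. Its probe Ka00652_481 read 4.36 and 4.52 in op testis, against 4.07 and 4.18 in wild-type testis (difference 0.31, adjusted p = 0.376). Its other probe read -0.84 and 0.09 in op testis, against -0.44 and -0.29 in wild-type testis (difference -0.01). The lowest mean belonged to MRPS18B of the small subunit, at -0.13 and -0.12.

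All 5 tested probes of mitochondrial gene expression had lower means in op testis, by small amounts. TFAM, which packs mitochondrial DNA and helps start its transcription, read 0.71 and 0.46 in op testis, against 0.68 and 0.86 in wild-type testis, on probe Ka01830_248. Its differences were -0.19 and -0.22 (adjusted p = 0.611 and 0.544). TUFM, the mitochondrial elongation factor Tu, differed by -0.02 on its tested probe, and its other probe was well above background on 1 array of each genotype.

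Import and processing proteins held the widest difference of all the mitochondrial probes tested. TOMM40, the pore of the outer membrane, read 0.54 and 0.01 in op testis, against -2.31 and -0.17 in wild-type testis, on probe Ka00473_467. On probe Ka00473_549 it read 1.06 and 0.73 in op testis, against -0.82 and 0.66 in wild-type testis. The differences were 1.51 (SE 0.75, adjusted p = 0.36) and 0.97 (SE 0.52, adjusted p = 0.393), and wild type 1 stood far below the other arrays on both probes. Without wild type replicate 1 they shrank to 0.44 and 0.23. Wild type 1 was also the lowest array at the tested muscle markers.

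TOMM70A, an import receptor, had the lowest mean of the class. It read -1.03 and -0.41 in op testis, against 0.00 and -0.26 in wild-type testis, on probe Ka01345_1071, and 0.00 and 0.50 in op testis, against 0.92 and 0.80 in wild-type testis, on probe Ka01345_1111. Its differences were -0.59 and -0.61 (adjusted p = 0.329 and 0.259), with op 1 lowest on both, and -0.28 and -0.37 without op replicate 1. The other 10 probes, for TOMM20, TIMM17B, PMPCA, PMPCB and IMMP2L, lay between -0.26 and 0.20.

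The carrier class, counting the carrier homolog MTCH1 (-0.08 and -0.19), split evenly. In op testis 8 of 16 probes were higher and 8 lower, and this split held in all 12 settings with every array. At an unadjusted p under 0.05, 5 were higher and 2 were lower, against 10.6% and 8.04% of all probes. With median alignment 1 was higher and 3 lower, against 7.87% and 11.7% of all probes. With no scaling the counts were 2 and 0, against 6.27% and 7.1%. They did not hold when a wild-type array was left out. SLC25A1, the citrate carrier, had the highest mean. It read 1.98 and 1.26 in op testis, against 0.71 and 0.61 in wild-type testis, on probe Ka01779_696, and 1.17 and 0.33 in op testis, against -0.12 and -0.22 in wild-type testis, on probe Ka01779_726. The differences were 0.96 (SE 0.28, adjusted p = 0.203) and 0.92 (SE 0.32, adjusted p = 0.244), with op 1 the higher op array. Without op replicate 2 they were 1.32 and 1.34, and without op replicate 1 they were 0.60 and 0.50.

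MPC1, a subunit of the mitochondrial pyruvate carrier, had the lowest mean of the carriers. It read -4.20 and -4.04 in op testis, against -3.43 and -3.76 in wild-type testis, on probe Ka02589_628, and -2.16 and -2.18 in op testis, against -1.44 and -1.75 in wild-type testis, on probe Ka02589_668. Its differences were -0.53 and -0.57 (adjusted p = 0.255 and 0.216), and the genotypes did not overlap. Under normexp background correction they were -0.19 and -0.38. The ADP/ATP carriers SLC25A4 and SLC25A6, which export the ATP that ATP synthase makes, had op arrays above wild-type arrays on all 4 probes. Of all probes, 28.8% did so. SLC25A6 read 5.98 and 5.91 in op testis, against 5.48 and 5.54 in wild-type testis, on probe Ka02366_706 (difference 0.43, adjusted p = 0.244). SLC25A4 read 4.01 and 3.83 in op testis, against 3.33 and 3.55 in wild-type testis, on probe Ka02738_1254 (difference 0.48, adjusted p = 0.257). Probe Ka02738_910 of SLC25A4 read 3.21 and 2.97 in op testis, against 2.39 and 2.93 in wild-type testis, a difference of 0.43 that was 0.16 without wild type replicate 1. The second SLC25A6 probe differed by 0.36. SLC25A3, the phosphate carrier that also serves ATP synthase, had lower means in op testis, with 2.19 and 1.64 in op testis, against 2.19 and 2.32 in wild-type testis, on probe Ka02603_816. Its differences were -0.34 and -0.31 (adjusted p = 0.492 and 0.527), with op 2 the lowest array. SLC25A4 and SLC25A6 are human names for near-identical proteins, and the sources used here do not say whether their ESTs share sequence.

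Matrix enzymes had 10 of 13 tested probes higher in op testis, against 53.2% of all probes tested. The 4 tested probes of IDH2 and the 3 of PCK2 are among the 10. At an unadjusted p under 0.05, 3 were higher and 2 lower, against 10.6% and 8.04% of all probes. With median alignment these counts were 0 and 2, against 7.87% and 11.7%. With no scaling they were again 0 and 2, against 6.27% and 7.1%. MDH2, the malate dehydrogenase of the citrate cycle, read 2.33 and 1.97 in op testis, against 1.60 and 1.55 in wild-type testis, on probe Ka00649_1049, and 2.29 and 2.27 in op testis, against 1.86 and 1.83 in wild-type testis, on probe Ka00649_756. Its differences were 0.58 and 0.44 (adjusted p = 0.234 and 0.236), and the genotypes did not overlap. ALDH2, an aldehyde dehydrogenase, differed by 0.31 and -0.09 on its 2 probes. ME3, a malic enzyme, had lower values in op testis. It read 2.38 and 2.04 in op testis, against 2.89 and 2.68 in wild-type testis, on probe Ka00199_1239, and 2.12 and 1.74 in op testis, against 2.81 and 2.64 in wild-type testis, on probe Ka00199_1296. Its differences were -0.57 (SE 0.20, adjusted p = 0.243) and -0.80 (SE 0.20, adjusted p = 0.17), and without op replicate 1 the second was -0.99.

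IDH2, the mitochondrial isocitrate dehydrogenase, matched 2 ESTs whose 4 probes differed by 0.54 to 0.85 (adjusted p = 0.297 to 0.479). On probe Ka00741_213 it read -2.56 and -1.67 in op testis, against -2.79 and -3.16 in wild-type testis. On all 4 probes op 2 was above op 1, by 0.58 to 1.06. The difference of this probe was 0.52 under normexp background correction, against 0.85 otherwise. PCK2, the phosphoenolpyruvate carboxykinase that starts gluconeogenesis from oxaloacetate, matched 3 ESTs. Probe Ka01586_374 read 4.88 and 5.59 in op testis, against 4.38 and 4.66 in wild-type testis (difference 0.71, adjusted p = 0.296), and the second probe of that EST gave 0.70 (adjusted p = 0.251). Probe Ka01595_252 of another EST read -0.81 and 0.59 in op testis, against -1.16 and -0.77 in wild-type testis (difference 0.85, adjusted p = 0.43). The 2 probes of its remaining EST were well above background on op 2 only.

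The differences of these enzymes changed with the op array left out. Without op replicate 1, IDH2 probes Ka00741_213 and Ka01511_645 differed by 1.30 and 1.18 and PCK2 probe Ka01595_252 by 1.55. Without op replicate 2 these 3 differences were 0.41, 0.27 and 0.15. In these fits a lone op array is assumed to vary like the wild-type arrays, so only the sizes of these differences are given.

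**Figure D4:**
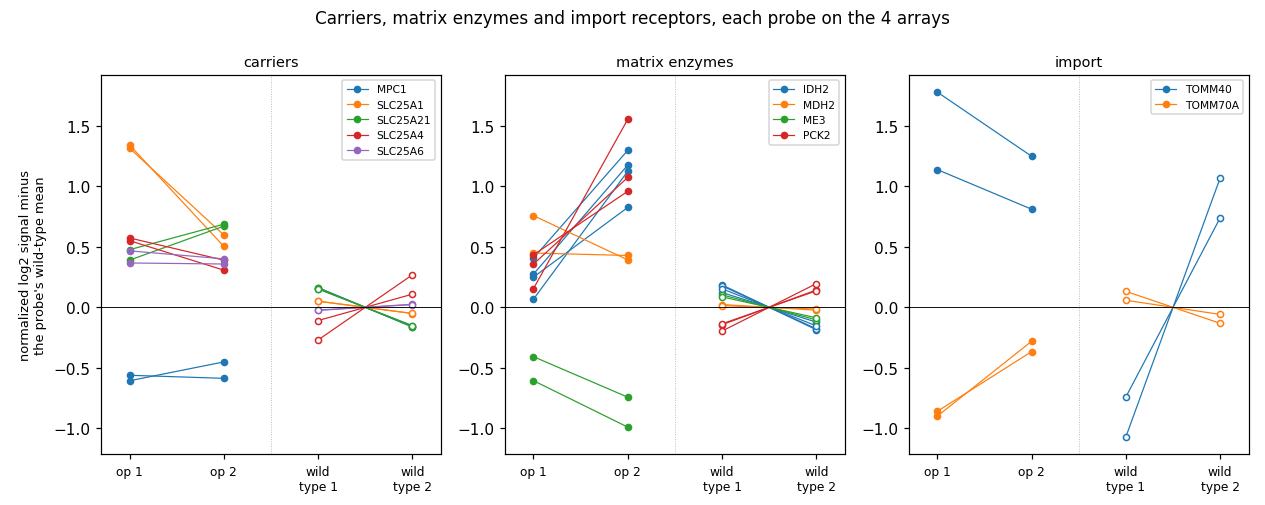
Normalized log2 signal of each probe minus its wild-type mean (y axis) on the 4 arrays (x axis, op arrays filled and wild-type arrays open), for the named carriers, matrix enzymes and import proteins, with 1 color per gene. SLC25A1 is highest on op 1, the IDH2 and PCK2 probes are highest on op 2, MPC1 and ME3 are below 0 on both op arrays, and the TOMM40 wild-type arrays lie far apart, with differences of 1.51 and 0.97 between genotypes.

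The replicate arrays of a genotype set the limits of these comparisons. Over the 101 mitochondrial probes the difference between op 1 and op 2 had an SD of 0.42, and that between wild type 1 and wild type 2 an SD of 0.31. Over all tested probes the SDs were 0.69 and 0.36. The mitochondrial probes were the brighter set, with a mean normalized log2 signal of 1.16 to 1.35 on an array, against -1.01 to -0.94. More than 2-fold apart were 3 mitochondrial probes on the op arrays, for ATP5C1, IDH2 and PCK2, and 2 on the wild-type arrays, both for TOMM40. Of all probes tested, 7.36% were so far apart on the op arrays and 1.84% on the wild-type arrays. The largest excess of op 1 was at ATP5C1 probe Ka02554_311 (1.20) and SLC25A1 probe Ka01779_726 (0.84). The largest excess of op 2 among tested probes was at PCK2 probe Ka01595_252, where op 1 minus op 2 was -1.40, and at IDH2 probe Ka01511_605, where it was -1.06.

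Probes of the same EST served as a check within the array. Of 49 ESTs with 2 tested mitochondrial probes, 42 gave differences of the same sign, or 85.7%, against 87.9% of 6432 such ESTs on the whole array. The median gap between the probes' differences was 0.05, against 0.07 over all ESTs. Among these ATP5C1 alone exceeded 1, followed by TOMM40 at 0.54 and ATP5G3 at 0.46. Probes of an EST come from the same RNA and are not replicates of a genotype.

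**Figure D5:**
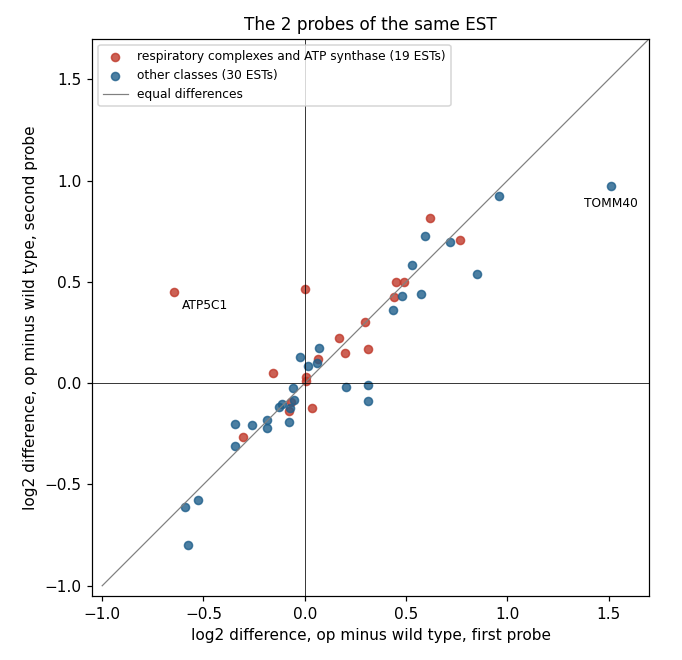
Log2 difference between op and wild-type testis on the first probe of an EST (x axis) against the second probe (y axis), for 49 ESTs with 2 tested mitochondrial probes. Most points follow the line of equal differences, and ATP5C1 lies far from it, at -0.64 on the first probe and 0.45 on the second.

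Other mitochondrial genes, whose descriptions do not contain the words of the rule, were read from a list of 27 genes with 57 probes. Of the 56 tested, 0 passed an adjusted p of 0.05 in limma, where 0.316% of all probes passed, and at an unadjusted p under 0.05, 4 were higher and 6 lower in op testis, which is 7.14% against 10.6% of all probes and 10.7% against 8.04%. Their median difference was 0.03. The 10 probes of fatty acid oxidation all had higher means in op testis, as did 53.2% of all probes tested, with a median of 0.44 over the 10. ETFA, which passes electrons from acyl-CoA dehydrogenases toward ubiquinone, read 1.82 and 2.09 in op testis, against 1.19 and 1.33 in wild-type testis, on probe Ka01728_690, and its differences were 0.69 and 0.78 (adjusted p = 0.173 and 0.145). ACAA2, the thiolase that ends a round of oxidation, differed by 0.57 and 0.59, with op 1 above op 2 by 2.19 and 2.24. Without op replicate 2 its differences were 1.67 and 1.71.

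Iron-sulfur cluster assembly, which supplies complexes I to III, had 7 of 8 probes below 0 and a median of -0.33. Of all probes tested, 53.2% were above 0. IBA57, which matures clusters late in the pathway, read 2.89 and 2.98 in op testis, against 3.64 and 3.61 in wild-type testis, on probe Ka00632_705. Its differences were -0.69 and -0.71 (adjusted p = 0.14 and 0.133), far wider than the gap between its replicate arrays. ISCU, the scaffold on which clusters are built, read 2.80 and 2.81 in op testis, against 3.72 and 3.81 in wild-type testis, on probe Ka02626_930, a difference of -0.96 (adjusted p = 0.101). On its other probe the difference was -0.16. The ISCU probe passed the threshold under normexp background correction (-0.95, adjusted p = 0.039) and in the trend and robust fit (-0.96, adjusted p = 0.0344).

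In the pyruvate and citrate cycle group, 10 of 14 probes were below 0 with a median of -0.17. FH, the fumarase that makes malate for MDH2, read -0.58 and -0.61 in op testis, against 0.15 and 0.03 in wild-type testis, on probe Ka02724_1109, with differences of -0.69 and -0.64 (adjusted p = 0.143 and 0.193). CS, the citrate synthase, differed by -0.16 and -0.17. VDAC2, the porin of the outer membrane, read 6.35 and 6.16 in op testis, against 5.76 and 5.85 in wild-type testis, on probe Ka01383_1066, with differences of 0.45 and 0.49 (adjusted p = 0.255 and 0.246). The 12 probes of chaperones, proteases and the import motor had a median of 0.02. DNLZ, a partner of the mitochondrial Hsp70, had 2 probes on an EST that differed by 1.43 and 0.06. The first read 0.74 and -0.01 in op testis, against -1.998 and -0.140 in wild-type testis, so that wild type 1 alone stood far below the other arrays.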

How the data were processed

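RNA of larval testis (op and wild type, day 3 of the last larval instar) was measured on 1-color Agilent arrays, 2 per genotype on a single slide. In the methods the array experiment has n = 5 per genotype in one place and 2 samples per genotype in another, and 4 arrays were analysed here. The authors labeled RNA with Cy3 and quantified spots in Agilent Feature Extraction 9.5. What they deposited for each array is the intensity of every spot with background removed. The authors also deposited log2 values normalized with GeneSpring, which matched a shift by each array's 75th percentile followed by centring of each probe, to within 0.000355; that shift was found from the values. Sequences of the probes were not used here. Columns of the authors' own comparison in the re-annotation table were not used, and 0 columns of other samples were left out.

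Control spots and outlier spots were left out. Testing required that 1 genotype or both had a probe well above background on its 2 arrays (30376 of 43803 probes). The comparison of genotypes used limma 3.58.1 (R 4.3.3; lmFit, then eBayes). Two-sided p-values were adjusted by Benjamini-Hochberg across every probe tested, and 0.05 was the threshold. Precision is limited by how few arrays there are. The steps were tested on simulated data. Alternatives covered background correction, scaling, the deposited values, filters, outlier spots, the variance model, array weights, a replicate block, each array left out and the methods' t-test.

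Genes are named by these rules: all members of the respiratory complexes and ATP synthase, in other classes the genes with the highest and lowest mean difference, genes with several ESTs (SLC25A4 and SLC25A6 as a pair), probe pairs of an EST over 1 apart on the log2 scale and the probes most uneven between the op arrays. MDH2, ALDH2, SLC25A3 and the genes named from the list of other mitochondrial genes were chosen after their values were seen. Not reported here are the values of 1 complex I subunit, whose probes stay in the counts. Members and lists were chosen with earlier results of these data known.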

Additional observations from a re-analysis of the deposited data

How the results depend on the processing

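The count of mitochondrial probes past the threshold was 0 with every array under each background, scaling, filter and variance setting, and ran from 0 to 6 when an array was left out. The methods' t-test gave 12 probes unadjusted, or 11.9% against 13.9% of all probes, and 0 after Benjamini-Hochberg adjustment. The other mitochondrial list gave 1 under normexp background correction, 1 in the trend and robust fit and 9 in the methods' t-test unadjusted (16.1%). The count of this list also moved in the fits without an op array. The median difference kept within the spread between replicates, from -0.04 with no scaling to 0.07 with no filter on dim probes, and from 0.02 to 0.11 with an array left out. Over all probes 96 passed as reported, against 0 with no filter on dim probes, 15 with quantile normalization, 45 with no scaling, 54 when all 4 arrays had to be well above background, 55 with array weights, 414 with normexp, 464 in the trend and robust fit and 715 with the replicate block. The replicate block left 0 mitochondrial probes past the threshold. Deviations of same-numbered arrays correlated at -0.03 over all tested probes. No source used here says whether same-numbered arrays were handled together, and this was not tested.

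Among 69 named probes, 25 of 757 values with every array changed sign, at 9 probes whose difference was at most 0.14 in size. With the array median as the shift the values were -0.087 for NDUFAF3 probe Ka00189_620, -0.085 for NDUFAF3 probe Ka00189_674, -0.031 for MT-CYB probe Ka02719_1174, -0.088 for MT-CO1 probe Ka02608_1116, -0.065 for MT-CO1 probe Ka02608_1136, -0.060 for COX6C probe Ka02583_430, -0.045 for ATP5B probe Ka01765_647 and -0.092 for ATP5G3 probe Ka02701_69. With no scaling they were, for the same probes in that order, -0.089, -0.087, -0.033, -0.089, -0.066, -0.061, -0.047 and -0.094. Quantile normalization gave -0.014 for NDUFAF3 probe Ka00189_620, -0.050 for MT-CYB probe Ka02719_1174, -0.067 for MT-CO1 probe Ka02608_1116, -0.10 for MT-CO1 probe Ka02608_1136, -0.0098 for COX6C probe Ka02583_430 and -0.0055 for ATP5G3 probe Ka02701_69. Normexp gave 0.028 for TIMMDC1 probe Ka00788_701, -0.017 for MT-CO1 probe Ka02608_1116 and -0.0071 for ATP5G3 probe Ka02701_69. With an array left out, 24 of 276 values changed sign, at 16 probes, whose ranges were -0.081 to 0.48 for MT-ND1 probe Ka01681_604, -0.13 to 0.44 for MT-ND1 probe Ka01681_802, -0.21 to 0.22 for NDUFAF3 probe Ka00189_620, -0.12 to 0.14 for NDUFAF3 probe Ka00189_674, -0.20 to 0.044 for TIMMDC1 probe Ka00788_673, -0.030 to 0.16 for MT-CYB probe Ka02719_1174, -0.18 to 0.19 for MT-CO1 probe Ka02608_1116, -0.11 to 0.17 for MT-CO1 probe Ka02608_1136, -0.045 to 0.11 for COX6C probe Ka02583_430, -0.14 to 0.0058 for COX10 probe Ka01428_620, -0.41 to 0.088 for ATP5B probe Ka01765_597, -0.24 to 0.33 for ATP5B probe Ka01765_647, -0.15 to 1.05 for ATP5C1 probe Ka02554_311, -0.086 to 0.091 for ATP5G3 probe Ka02701_69, -0.48 to 0.46 for MRPL12 probe Ka00652_521 and -0.15 to 0.11 for TUFM probe Ka01517_1121. The cause was not tested.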
